A study of Mus musculus with 4 samples.

Results

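The transcripts described here belong to 41 genes of DNA replication and mitosis, measured in alveolar macrophages of wild-type (WT) mice and of mice lacking the transcription repressor Bach2 (Bach2KO, also written Bach2-/-). Alveolar macrophages are the resident phagocytes of the airspaces and clear surfactant. The genes were listed by name as 18 replication genes and 23 mitosis genes, out of 19751 genes on the array, and each was read from its brightest probe. Cells of 8 WT mice, and of 3 mutant mice by the series design or 4 by the treatment protocol, were pooled by genotype, sorted by flow cytometry, and 1 RNA sample per genotype was split in 2 and labelled separately for 1-colour Agilent arrays. Age, sex, strain and how the Bach2 allele was made are not given in the sources used here.

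Because both arrays of a genotype carried the same RNA, the spread between them is that of labelling and hybridisation, and differences between WT and Bach2KO come with no test. Values are log2 signals relative to the 75th percentile of the array, and SDs are over 2 arrays. Pairing each Bach2KO array with each WT array gives 4 differences per gene, and a gene was called lower or higher where all 4 reached 2-fold that way, a size threshold without a test. Between 27125 and 27918 of 39429 probes per array were well above background. A gene counted as measured where its probe was so on both WT arrays or both Bach2KO arrays, which 15115 genes were. On all 4 arrays the 15 alveolar macrophage markers examined, Siglecf and Marco among them, exceeded background. The brightest Bach2 probe was well above background on 1 array of each genotype and gave no check of the labels. The WT arrays and the Bach2KO arrays lay in neighbouring places of 1 slide, and place and genotype cannot be told apart.

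Mouse alveolar macrophages are long-lived and maintain themselves in part by local division. A cell that commits to division loads the Mcm2-7 helicase on its origins with the help of Cdc6 and Cdt1. For S phase it also induces cyclin E, E2F targets and nucleotide synthesis. Later it accumulates cyclins A and B, Cdk1 and the proteins of the spindle and kinetochore, whose genes are switched on in G2. E2F factors and pocket proteins govern the first set of genes, and the MuvB complex with B-Myb and Foxm1 the second.

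The replication and mitosis genes listed as members had slightly lower signals in Bach2KO almost without exception. Of the 41 members 40 were measured, all 40 on every array, and Ccne2 was not well above background on any array. In 37 of the 40, both Bach2KO arrays lay below both WT arrays, against 39.5% of all measured genes. In 2 both lay above, against 45.6% of all measured genes, and for Tyms the arrays overlapped. The median difference was -0.43 on the log2 scale, against a median of 0.06 and quartiles of -0.35 and 0.45 over all measured genes. While 24 of the 40 members lay below that lower quartile, Ccnb1 alone lay above the median of all genes. In bulk RNA, fewer cycling cells and less of these transcripts per cycling cell cannot be told apart.

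Replication and mitosis genes differed by similar amounts. The median was -0.39 for the 17 measured replication genes, which ranged from -1.18 to 0.05, and -0.45 for the 23 mitosis genes, which ranged from -1.49 to 0.15. Most of these differences were small. At 2-fold 4 of 40 members were lower, against 5.89% of all measured genes, and 0 were higher, against 8.36%. At 1.5-fold 11 of 40 were lower, against 12.8% of measured genes, and 0 higher, against 14.8%. At 3-fold 0 were lower or higher, against 2.71% and 4.59%.

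**Figure D1:**
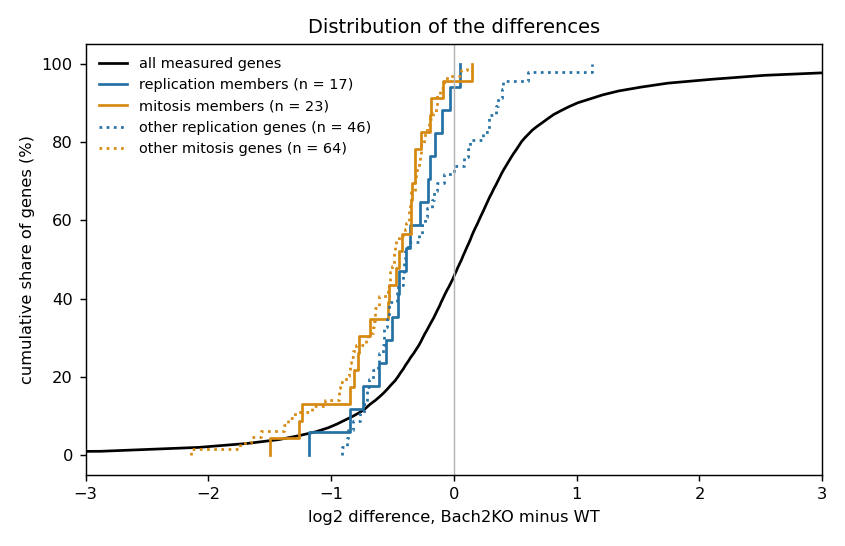
Cumulative share of genes (%) against the log2 difference, Bach2KO minus WT, for all measured genes, the 17 replication and 23 mitosis members, and the other replication (46) and mitosis (64) genes, cut at 3 on either side. Both member curves lie to the left of the curve of all genes over most of their range, with medians of -0.39 and -0.45 against 0.06.

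The 4 members called lower were the kinesin genes Kif23 and Kif11, the checkpoint kinase gene Bub1b and the thymidine kinase gene Tk1. Kif23 (NM_024245, chromosome 9), whose product bundles the central spindle for cytokinesis, had signals of -0.12 and -0.11 in WT and -1.59 and -1.64 in Bach2KO. This was the lowest difference of any measured member, at -1.49, or 2.82-fold lower. Kif11 (NM_010615, chromosome 19), the motor that slides spindle poles apart, had signals of -2.05 and -1.99 in WT and -3.16 and -3.40 in Bach2KO, 2.39-fold lower. Bub1b (NM_009773, chromosome 2), which encodes the checkpoint protein BubR1, had signals of 0.88 and 1.10 in WT and -0.18 and -0.33 in Bach2KO, 2.36-fold lower. Its arrays were more scattered than those of Kif23, with SDs of 0.15 and 0.11, yet the genotypes did not overlap. Tk1 (NM_009387, chromosome 11), the S-phase enzyme of thymidine salvage, had signals of 2.09 and 2.10 in WT and 0.92 and 0.91 in Bach2KO, 2.27-fold lower. With normexp, which models the background under each spot, Kif23 and Tk1 were called lower and Bub1b (-1.17) and Kif11 (-0.89) were not, beside 3.96% of all measured genes, and 0 members were higher, beside 5.93%.

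**Figure D2:**
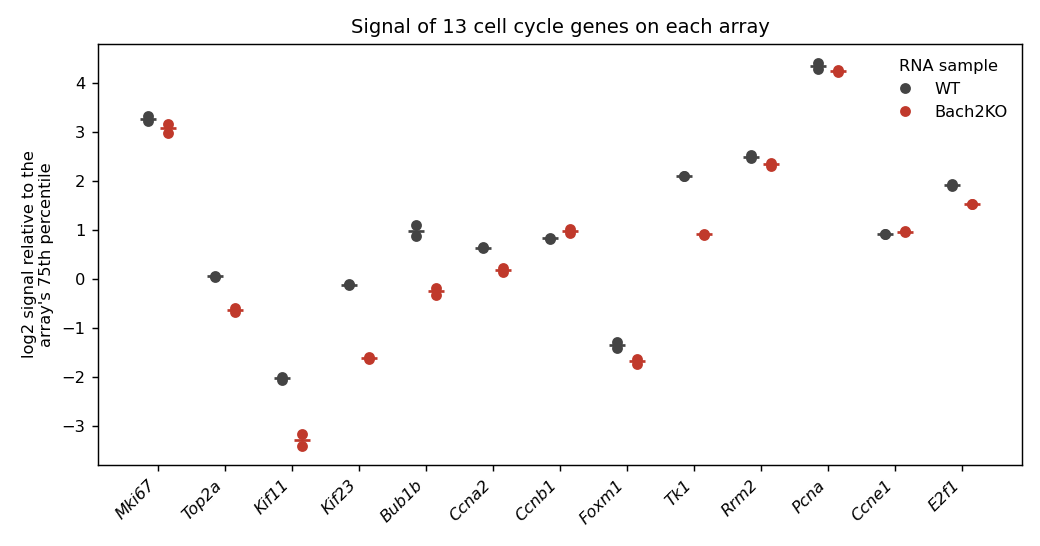
Log2 signal relative to the 75th percentile of each array for 13 members, with 1 point per array (2 WT in grey, 2 Bach2KO in red) and a bar at the mean. The gap between genotypes is widest for Kif23, Kif11, Bub1b and Tk1, whereas Ccne1 and Ccnb1 lie slightly higher in Bach2KO with this scaling, and lower with spike-in scaling.

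Promoter windows of members at both ends of the range are shown for the motifs that the replication and mitosis programs are known to use. RefSeq windows (GRCm38.p6, 250 bases before to 50 after the start site) were on hand for 33 of the 41 members. The 3 motifs were searched on both strands, and a match is a description of letters and not a binding site. They were the NF-Y box CCAAT, the cell cycle homology region (CHR, TTTGAA or TTCGAA) bound by MuvB complexes, and the E2F motif (TTTCCCGC, TTTCGCGC, TTTGCCGC or TTTGGCGC). Matches are in capitals, each window is given 5′ to 3′ on the strand of its gene, and no 2 of the motifs overlap in these windows. The 4 called genes come first, followed by Cdc6, the replication gene with an E2F match and the lowest difference, and Ccnb1, the member with the highest difference.
Kif23, chr9:61946750-61947049, minus strand: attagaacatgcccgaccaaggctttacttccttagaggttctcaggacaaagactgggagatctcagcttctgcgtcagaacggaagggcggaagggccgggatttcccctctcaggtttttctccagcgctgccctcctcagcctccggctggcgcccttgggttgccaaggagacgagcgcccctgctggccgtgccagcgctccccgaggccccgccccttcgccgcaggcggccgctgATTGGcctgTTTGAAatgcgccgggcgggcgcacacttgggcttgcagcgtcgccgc
Kif11, chr19:37376132-37376431, plus strand: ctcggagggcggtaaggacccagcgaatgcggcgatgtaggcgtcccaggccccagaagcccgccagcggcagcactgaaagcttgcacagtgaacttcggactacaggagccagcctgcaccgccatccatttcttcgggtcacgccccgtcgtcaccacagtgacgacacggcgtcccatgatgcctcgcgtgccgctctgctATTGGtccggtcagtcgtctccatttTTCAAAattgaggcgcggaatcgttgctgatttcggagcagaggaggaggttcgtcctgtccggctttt
Bub1b, chr2:118597961-118598260, plus strand: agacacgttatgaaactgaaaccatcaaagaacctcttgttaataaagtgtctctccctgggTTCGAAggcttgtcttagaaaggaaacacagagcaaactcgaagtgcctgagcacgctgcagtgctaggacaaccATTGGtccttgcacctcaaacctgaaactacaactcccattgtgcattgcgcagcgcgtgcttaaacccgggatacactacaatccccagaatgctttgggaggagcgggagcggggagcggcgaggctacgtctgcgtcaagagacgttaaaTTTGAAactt
Tk1, chr11:117825965-117826264, minus strand: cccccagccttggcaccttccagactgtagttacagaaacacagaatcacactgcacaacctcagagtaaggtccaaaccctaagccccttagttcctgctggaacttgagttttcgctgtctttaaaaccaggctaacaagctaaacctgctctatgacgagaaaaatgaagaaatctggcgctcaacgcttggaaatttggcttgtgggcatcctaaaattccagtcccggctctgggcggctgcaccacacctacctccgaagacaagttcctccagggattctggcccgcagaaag
Cdc6, chr11:98907901-98908200, plus strand: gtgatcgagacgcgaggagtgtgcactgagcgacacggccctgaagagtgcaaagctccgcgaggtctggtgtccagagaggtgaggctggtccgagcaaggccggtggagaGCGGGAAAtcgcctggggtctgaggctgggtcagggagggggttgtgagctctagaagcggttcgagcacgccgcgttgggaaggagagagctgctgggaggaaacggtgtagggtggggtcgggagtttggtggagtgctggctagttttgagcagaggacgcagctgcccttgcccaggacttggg
Ccnb1, chr13:100786437-100786736, minus strand: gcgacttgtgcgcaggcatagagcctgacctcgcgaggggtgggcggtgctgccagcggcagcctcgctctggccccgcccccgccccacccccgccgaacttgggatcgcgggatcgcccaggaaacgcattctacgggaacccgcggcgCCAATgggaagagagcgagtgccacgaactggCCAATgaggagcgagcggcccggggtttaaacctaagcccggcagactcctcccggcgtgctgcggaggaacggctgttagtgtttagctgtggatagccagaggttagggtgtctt

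Motif content differed between the gene groups, whose signals differed by similar amounts. A CHR match was present in 14 of 18 mitosis members and 2 of 15 replication members, against 19.2% of all 32851 promoter windows, where a member with 2 windows counted once. An E2F match was present in 7 of 15 replication members and in 1 of 18 mitosis members, Cdk1, against 2.26% of all windows. CCAAT was present in 16 of 18 mitosis and 9 of 15 replication members, against 37.4%. Kif11 carries CCAAT and CHR matches that begin 45 and 19 bases before the start site, and in Kif23 they begin 7 bases before and 2 after it. Bub1b carries both motifs, farther apart. The Tk1 window holds none of the 3, and Ccnb1 holds CCAAT in 2 places with no CHR match. Median differences were -0.48 for the 16 measured members with a CHR match and -0.36 for the 17 without, and -0.48 for the 8 with an E2F match and -0.35 for the 25 without. For CCAAT the order was opposite, with -0.35 for the 25 members that hold it and -0.51 for the 8 that do not.

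The 9 origin licensing and helicase members were lower together. All 9 lay lower in every array pair, against 39.5% of all measured genes, and their median was -0.46. None was called lower at 2-fold, against 5.89%. Among Orc and Gins genes outside the members, Orc3, Orc4, Orc6, Gins3 and Gins4 also lay lower in every pair. Orc1, Orc2, Orc5 and Gins1 lay higher in every pair, by 0.28, 0.34, 0.29 and 0.13, and the arrays of Cdc45 overlapped. Of the 6 subunits of the Mcm2-7 helicase, which unwinds DNA at the fork, Mcm7 differed most, at -0.74, with WT signals of 2.75 and 2.76 and Bach2KO signals of 2.02 on both arrays. Mcm2 differed least, at -0.21, and Mcm4, Mcm3, Mcm6 and Mcm5 lay between, at -0.61, -0.46, -0.36 and -0.28. The pair ranges of Mcm7 (-0.75 to -0.73) and Mcm2 (-0.25 to -0.17) were well apart. Those ranges hold labelling and hybridisation only, and each of these genes was read from 1 probe. Unequal differences of the subunits' transcripts and unequal responses of their probes cannot be told apart. The loading factor gene Cdc6 differed by -0.85, or by -0.52 with normexp, with arrays at -2.05 and -1.88 in WT and -2.79 and -2.84 in Bach2KO. Cdt1, the other loading factor, differed by -0.55, and Gins2, a subunit of the active helicase, by -0.44.

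Genes of the replication fork and of nucleotide supply were less uniform. Pcna, the sliding clamp of DNA polymerases, had signals of 4.40 and 4.29 in WT and 4.27 and 4.22 in Bach2KO, a difference of -0.10. Uhrf1, which reads hemimethylated DNA behind the fork, differed by -0.50. Among the enzymes that supply deoxynucleotides, only Tk1 moved past 2-fold. Rrm2, the S-phase subunit of ribonucleotide reductase, had signals of 2.52 and 2.46 in WT and 2.31 and 2.36 in Bach2KO, a difference of -0.16, and its partner Rrm1 differed by -0.20. Tyms, which makes thymidylate without salvage, had overlapping arrays (-2.07 and -2.20 in WT, -2.27 and -2.08 in Bach2KO). The signal of the salvage enzyme gene was thus lower by more than those of the 3 genes of new synthesis, with 1 probe for each gene.

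The genes of entry into S phase differed little or, for E2f1, moderately. Ccne1, which encodes cyclin E1, the Cdk2 partner at the G1/S boundary, had signals of 0.92 and 0.91 in WT and 0.98 and 0.95 in Bach2KO, a difference of 0.05. A dimmer second probe of Ccne1 differed by -0.21, and the direction of the brighter one turned with median centring (-0.06) and spike-in scaling (-0.67). Ccne2, the second cyclin E gene, was not well above background on any array (signals from -8.28 to -6.83), and no fold is given. E2f1, the activating E2F factor, had signals of 1.88 and 1.94 in WT and 1.52 on both Bach2KO arrays, a difference of -0.39.

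Among regulators of mitotic entry the 2 B-type cyclins parted. Ccnb2 had signals of 2.25 and 2.26 in WT and 1.46 and 1.43 in Bach2KO, a difference of -0.81, or 1.75-fold lower. Ccnb1 had signals of 0.82 and 0.84 in WT and 1.01 and 0.94 in Bach2KO, a difference of 0.15, and its other 2 probes differed by 0.02 and 0.04, with overlapping arrays. With spike-in scaling the difference of Ccnb1 turned to -0.57. Both cyclins partner the mitotic kinase Cdk1, whose own transcript differed by -0.32. For the other 2 Cdk1 probes, which are dimmer, differences were -0.62 and 0.55, so the probes of Cdk1 disagree. Ccna2, the cyclin of S phase and G2, had signals of 0.62 and 0.64 in WT and 0.14 and 0.22 in Bach2KO, a difference of -0.45. Foxm1, the transcription factor of G2 genes, had signals of -1.28 and -1.41 in WT and -1.74 and -1.63 in Bach2KO, a difference of -0.34, with 0.03 for a dimmer probe. The kinase genes Plk1 and Aurka differed by -0.42 and -0.32.

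Mki67, the proliferation antigen that coats mitotic chromosomes, was among the least different genes. Its signals were 3.21 and 3.31 in WT and 3.15 and 2.98 in Bach2KO, a difference of -0.19, and its second probe differed by -0.13. Top2a, the topoisomerase that untangles sister chromatids, had signals of 0.04 and 0.07 in WT and -0.60 and -0.67 in Bach2KO, a difference of -0.69. The pairs spanned -0.33 to -0.06 for Mki67 and -0.74 to -0.64 for Top2a, so the signals of these common markers of cycling cells did not differ alike. Top2a had 1 probe, and effects of gene and probe cannot be told apart.

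Spindle, kinetochore and cytokinesis genes included the largest differences. Spindle genes had a median of -0.85 over 5 genes, with Nusap1, a microtubule-bundling protein gene, at -0.85, the cytokinesis kinesin gene Kif20a at -0.53 and the spindle assembly factor gene Tpx2 at -0.19. The second Tpx2 probe was dimmer and differed by 0.36, and the mean of both was 0.09. Beside Bub1b, the kinetochore genes Bub1, Cenpe and Cenpf differed by -0.35, -0.27 and -0.54, of which the difference of the dim Cenpf turned to 0.06 with normexp. The chromosomal passenger genes Cdca8, Birc5 and Aurkb, which encode borealin, survivin and the Aurora B kinase, differed by -0.77, -0.47 and -0.78. Aurkb was dim and variable, with pairs from -1.14 to -0.42 and a difference of -0.12 with normexp, whereas the pairs of Cdca8 spanned -0.78 to -0.77. Ube2c and Cdc20, the E2 enzyme and activator of the anaphase-promoting complex, differed by -0.09 and -0.35.

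**Figure D3:**
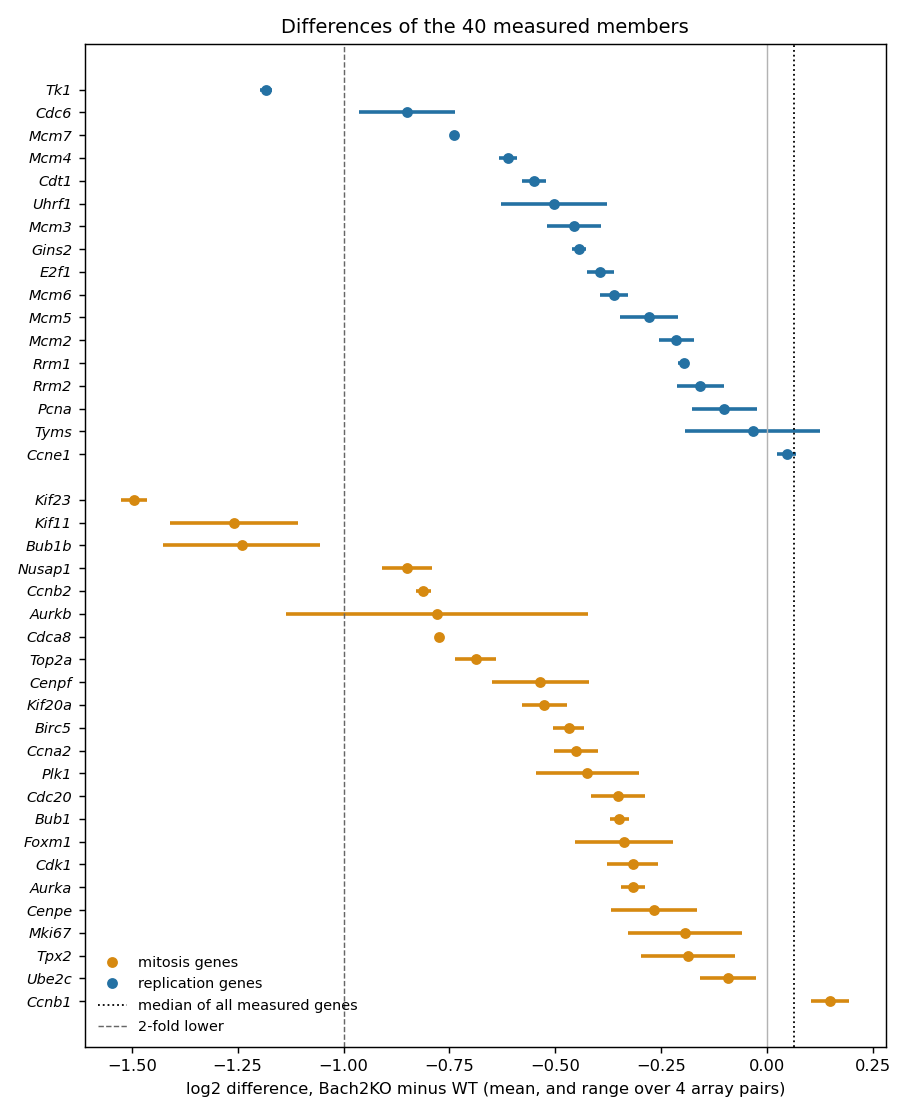
Log2 difference, Bach2KO minus WT, of the 40 measured members, with the mean as a point and the range over the 4 array pairs as a bar, for mitosis (orange) and replication (blue) genes. All but Ccnb1 lie left of the dotted line at the median of all measured genes, and Kif23, Kif11, Bub1b and Tk1 lie wholly left of the dashed line at 2-fold lower. Relative to spike-in probes all 40 lie left of 0, and with normexp Cenpf lies right of it.

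Differences between arrays of the same RNA were small beside most of these values. For the measured members the absolute gap between the 2 arrays had a median of 0.05 in each genotype and reached 0.40 in WT and 0.32 in Bach2KO, both for Aurkb. In 37 of 40 members the genotype difference exceeded both of that gene's gaps, which was not counted over all genes. In every pair 39.5% of all measured genes lay lower and 45.6% higher, so most genes had arrays that did not overlap. Of the 41 members 11 had several probes, 25 in all, and in 7 of the 11 every probe differed in the same direction. The exceptions were Ccne1, Cdk1, Foxm1 and Tpx2.

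Replication and mitosis genes outside the 41 members were also mostly lower, though with a wider range. Of 46 further replication genes, from the origin recognition complex to polymerases and chromatin assembly factors, 0 were lower and 0 higher at 2-fold, against 5.89% and 8.36% of all measured genes, with a median of -0.40. In every pair 32 of the 46 lay lower and 11 higher, against 39.5% and 45.6% of all genes. Lig1, the ligase gene of lagging-strand synthesis, had the highest difference, a mean of 1.13, with signals of 2.82 and 2.81 in WT and 4.09 and 3.80 in Bach2KO. It missed the call because not every pair reached 2-fold, the lowest being at 0.98. Of 64 further mitosis genes 8 were lower and 0 higher, with a median of -0.49, and 58 of the 64 lay lower and 2 higher in every pair, with the same shares of all genes for comparison. Hjurp, the chaperone gene of the centromeric histone Cenpa, was lowest among them, from -1.29 ± 0.11 in WT to -3.43 ± 0.06 in Bach2KO (SD, n = 2 arrays), 4.41-fold lower. Its log2 difference was -2.14, or -1.45 with normexp. Hmgb2, a chromatin protein gene, was 3.34-fold lower, the Cdk-activating phosphatase gene Cdc25b 3.14-fold and Anln, which encodes the cytokinetic ring scaffold anillin, 2.97-fold.

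Regulators upstream of these genes differed in both directions. Ccnd1, which encodes the growth factor-responsive cyclin D1, was higher, from -4.17 ± 0.14 in WT to -1.21 ± 0.04 in Bach2KO (SD, n = 2 arrays), 7.77-fold. Ccnd2, another D cyclin gene, was 2.74-fold lower, and Ccnd3 differed by -0.72. Among the Cdk inhibitor genes, Cdkn2b, which encodes p15, was 3.87-fold lower and Cdkn1b, which encodes p27, 2.17-fold lower, while Cdkn2a, the p16 and p19Arf gene, was 2.57-fold higher. The call of Cdkn1b ended with quantile normalization (-1.07) and normexp (-1.07), and that of Cdkn2a with spike-in scaling (0.64) and normexp (1.08). With normexp the log2 differences of Ccnd1 and Cdkn2b were 2.16 and -1.33, against 2.96 and -1.95 in the main setting. Cdkn1a, the p21 gene, differed by 0.81 and did not reach 2-fold. In all 2 of 13 D cyclin, G1 kinase and inhibitor genes were higher and 3 lower, against 8.36% and 5.89% of all measured genes. With spike-in scaling 1 was higher and 6 lower, against 4.15% and 21%.

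Of 17 E2F, pocket protein and MuvB genes 2 were lower and 0 higher, against 5.89% and 8.36% of all measured genes, with a median of -0.24 beside 0.06 for all genes. E2f8, an atypical E2F that is itself an E2F target, was 2.41-fold lower and Rbl1, the pocket protein p107 gene and another E2F target, 2.21-fold lower, a call of Rbl1 that ended with quantile normalization (-1.09) and normexp (-1.11). The pocket protein genes Rb1 and Rbl2 differed by 0.45 and 0.18, or by -0.27 and -0.53 with spike-in scaling, and Mybl2, which encodes B-Myb, by -0.28. With spike-in scaling the median of this list was -0.96, beside -0.66 for all genes, and 5 genes were lower, against 21%. Of 10 measured growth factor, Myc and self-renewal genes, Csf1 was 159-fold higher. Its WT signals were dim, at -4.90 and -4.88, and its log2 difference was 7.31, or 5.96 with normexp. Maf, not well above background on either WT array, was at least 7.26-fold higher. Csf1 is a macrophage growth factor, and c-Maf is known to restrain self-renewal of mouse macrophages.

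**Figure D4:**
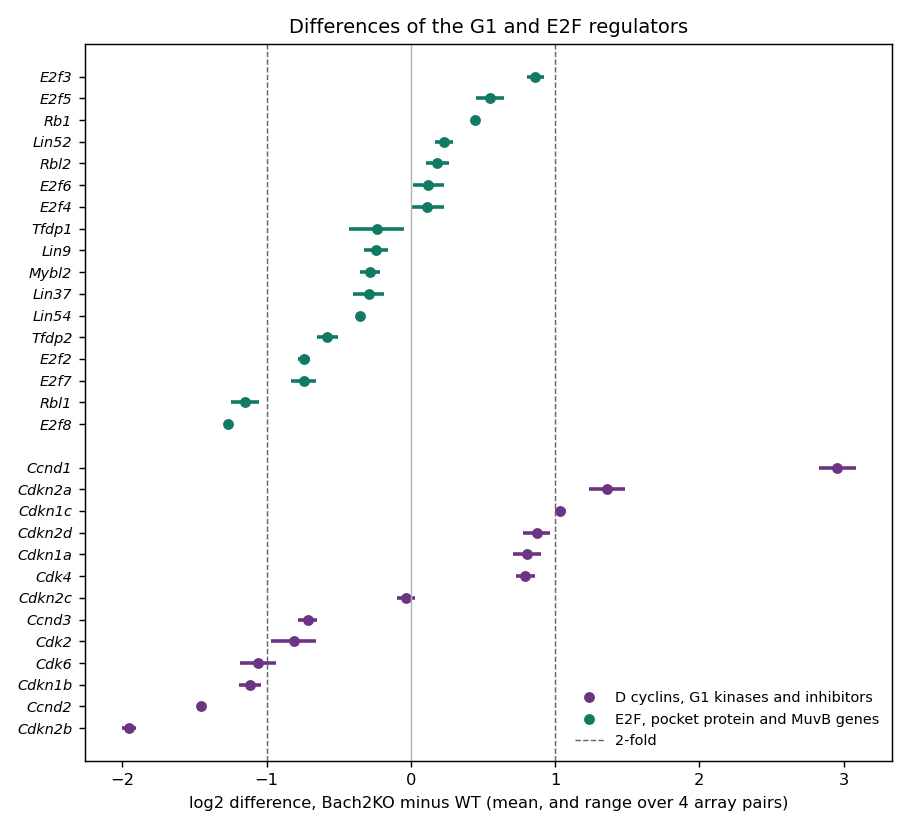
Log2 difference, Bach2KO minus WT, of 13 D cyclin, G1 kinase and inhibitor genes (purple) and 17 E2F, pocket protein and MuvB genes (green), with the mean as a point and the range over the 4 array pairs as a bar. Ccnd1 and Cdkn2a lie beyond the dashed 2-fold line on the right, and Cdkn2b, Ccnd2, Cdkn1b, E2f8 and Rbl1 beyond it on the left. With spike-in scaling Rb1 and Rbl2, here right of 0, lie left of it.

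Markers of other cells differed between WT and Bach2KO as well. For comparison, 8.36% of all measured genes were called higher and 5.89% lower. In every pair 45.6% of all measured genes lay higher and 39.5% lower. Of 11 measured monocyte and interstitial macrophage markers 6 were higher and 1 lower. Their summed signal, in multiples of the array's 75th percentile, was 57.9 and 59.9 in WT and 66.5 and 65.9 in Bach2KO. Csf1r made up 48.2 and 50.4 of it in WT and 52.4 and 51.4 in Bach2KO. The other 10 summed to 9.70 and 9.47 in WT and 14.1 and 14.5 in Bach2KO. Of 11 T cell markers 4 were higher and 1 lower, with summed signals of 61.9 and 61.5 in WT and 28.4 and 27.8 in Bach2KO, and Cd3d, Cd3g and Il7r were not well above background on either WT array. The lower sum came from Cd2, the marker called lower, which made up 54.2 and 54.6 of it in WT and 14.4 and 14.1 in Bach2KO. The other 10 markers lay higher in every pair and summed to 7.76 and 6.94 in WT and 14.0 and 13.7 in Bach2KO. The sum of 9 neutrophil markers was 4.05 and 3.84 in WT and 23.1 and 25.1 in Bach2KO, while Ngp was not well above background on any array. S100a8 made up 1.39 and 1.33 of that sum in WT and 17.7 and 19.2 in Bach2KO. The other 8 markers summed to 2.66 and 2.51 in WT and 5.49 and 5.97 in Bach2KO. Of the 8 measured, 3 were called higher and 0 lower, and in every pair 7 lay higher and 1 lower. Of the measured markers, 2 of 7 for B and plasma cells, 3 of 8 for lung epithelium and 2 of 6 for endothelium and stroma were higher and 0 lower, and none of 4 NK cell, 3 eosinophil and 4 dendritic cell markers was called. Alveolar macrophage markers, of which 6 of 15 were lower and 2 higher, summed to 1525 and 1375 in WT and 1291 and 1253 in Bach2KO. Without Chil3, the brightest, the other 14 summed to 1228 and 1134 in WT and 912 and 882 in Bach2KO. Siglecf, a surface marker of these cells, was 12.6-fold lower. The 2 called higher, Fabp4 and Fabp5, were 3.00-fold and 2.93-fold higher, calls that ended with spike-in scaling. The remaining 7 were called neither way. The part of cell makeup in the lower cell cycle signals was not tested.

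The size of the differences depended on what the arrays were scaled to. The array carries 9 probes for spike-in control RNA, whose amounts per sample are not given in the sources used here. With scaling to these, every difference dropped by 0.72, 20 of 40 members were lower at 2-fold, against 21% of all measured genes, 0 were higher, against 4.15%, and the median was -1.15 beside -0.66 for all genes. All 40 members then lay lower in every pair, as did 80.4% of measured genes. With median centring 4 of 40 were lower, against 6.6% of genes, 0 were higher, against 7.4%, and 38 lay lower in every pair, against 44.7%. With quantile normalization 4 of 40 were lower, against 6.26% of genes, 0 were higher, against 7.82%, and 36 lay lower in every pair, against 42.1%. Relative to the median of all genes, the members' median was -0.50 with the 75th percentile, with median centring and with spike-in scaling, -0.42 with quantile normalization and -0.52 with normexp.

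**Figure D5:**
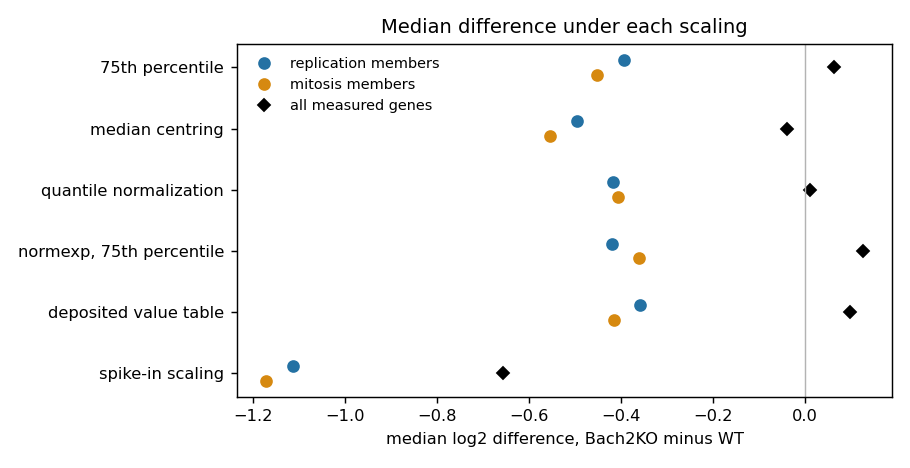
Median log2 difference, Bach2KO minus WT, of the replication members, the mitosis members and all measured genes under 6 ways of scaling the arrays. Both member medians lie left of the median of all genes under each scaling shown, and spike-in scaling moves all 3 medians to lower values.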

How the data were processed

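Expression was measured on 4 Agilent 1-colour (Cy3) mouse arrays, 2 per genotype, grouped by sample title. Per the file headers, the deposited scanner files hold linear spot intensity from Agilent Feature Extraction 10.7.3.1 (the submitters' processing notes name 9.1). Background and spatial trend had been removed, without normalization between arrays. The deposited value table holds log2 values. Each equalled log2 of that array's processed intensity less 1 value per array, so scale, direction and absence of gene centring were settled (column medians -3.58, -3.67, -3.53 and -3.45). No probe coordinates are given, as the probes were designed on mm9.

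Control spots and outlier spots (109 to 136 per array of 43020) were left out, log2 values of spots with the same probe were averaged, and the 75th percentile of the array's spots (1267 and 1513 in WT, 1036 and 979 in Bach2KO) was subtracted. No spot was saturated. A probe counted as well above background where no fewer of its spots were than were not, by the scanner software's flag. Where a genotype was not, a call also needed its lower bound, taken against the lowest signal well above background on that array, to reach 2-fold. Symbols came from unversioned RefSeq accessions (GRCm38.p6) for 26055 of 39429 probes, with 0 matching several genes. Normexp (offset 50, median spot signals) and quantile normalization used limma 3.58.1 in R 4.3.3, and the rest Python 3.11.15. No test across genotypes was made, since each is 1 RNA sample. The number of arrays limits the precision. Members, lists and thresholds were chosen with earlier results of these data known. Values are given per array for called members, for 9 genes chosen for their roles and for both ends of the range, and of the other lists up to 4 called genes each way are named. Promoter sequences are from RefSeq. Alternatives are given in the closing section.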

Additional observations from a re-analysis of the deposited data

How the results depend on the processing

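No paired analysis was possible because the replicate numbers come from splitting 1 RNA sample per genotype and the results come from no test. The median difference of the members kept its direction under every alternative run. It was -0.54 with median centring, -0.41 with quantile normalization, -1.15 with spike-in scaling, -0.39 with normexp and -0.40 with the deposited value table, and leaving out 1 array in turn gave -0.45 to -0.41. The replication median was -0.50 with median centring, -1.11 with spike-in scaling, -0.36 with the deposited table and -0.42 to -0.36 without 1 array. The mitosis median was -0.55, -0.41, -1.17, -0.36 and -0.42 with median centring, quantile normalization, spike-in scaling, normexp and the deposited table, and -0.47 to -0.44 without 1 array. Members called lower were 20 with spike-in scaling, 2 with normexp, 11 at 1.5-fold and 0 at 3-fold, against 4 in the main setting and without any 1 array, and 0 were called higher under any alternative. Over all measured genes 891 were called lower and 1264 higher, against 3172 and 627 with spike-in scaling, 1931 and 2234 at 1.5-fold, and 409 and 694 at 3-fold. The cause of these shifts was not tested, beyond the constant 0.72 that spike-in scaling subtracts. Of the measured members between 37 and 40 had a mean difference below 0 under each alternative. The arrays of a genotype share 1 RNA sample, so differences between mice cannot be assessed, and dim members such as Aurkb and Cenpf are least precise.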
